A study of Mus musculus with 7 samples.

Results

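Interferon regulatory factors (IRFs) were examined in 7 RNA-seq libraries of mouse lung regulatory T (Treg) cells. The members were taken by gene symbol, and all 8 of them (Irf1, Irf2, Irf3, Irf4, Irf5, Irf7, Irf8 and Irf9) were found among the 19736 symbols of the files. All 8 passed the filter on low values, which kept 14582 genes. Both groups carried the Il4raR576 allele, a variant form of an interleukin-4 receptor subunit, and the Foxp3EGFP reporter of the Treg transcription factor, and they differed in the sort for the chemokine receptor CCR6. There were 3 CCR6+ and 4 CCR6- libraries, and the CCR6- libraries are the controls. All mice were female and 5 to 7 weeks old. They received 100 µg of ovalbumin into the peritoneum, a boost 2 weeks later, and from day 29 an aerosol of 1% ovalbumin for 30 min on each of 3 days, and were killed on day 32. No wild-type Il4ra and no unchallenged group is part of the comparison. The labels do not say whether libraries came from separate or pooled mice, so the error behind every p-value is that between libraries and may be technical only.

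IRFs are transcription factors that share a DNA-binding domain with a set of conserved tryptophans and recognise GAAA repeats. IRF3 and IRF7 switch on interferon genes downstream of nucleic acid sensors, IRF5 acts downstream of Toll-like receptors, and IRF9 is the DNA-binding part of the complex ISGF3 at interferon-stimulated genes. IRF1 and IRF2 are an activator and an antagonist at shared sites. IRF4 and IRF8 are found mostly in blood cells and bind with partners of the ETS or AP-1 families, and IRF4 is known for its roles in effector Treg cells and in TH17 cells.

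The family was expressed throughout, led by Irf1. No member passed the test between CCR6+ and CCR6- cells. Irf5 and Irf3 were the 2 members whose groups did not overlap, and they lay on opposite sides: Irf5 stood at 2555 ± 857 (SD, n = 3) normalised counts in CCR6+ against 1216 ± 210 (n = 4) in CCR6- cells, and Irf3 at 2493 ± 511 against 3867 ± 1101. Groups did not overlap for 13.5% of all genes tested, for 7.96% with CCR6+ above and for 5.53% with CCR6+ below. The groups of Irf4 did not overlap once CCR6+ replicate 2 was left out, as for 10.9% of all genes then with CCR6+ above.

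Short stretches of promoter are shown because interferon itself is known to act on several of these genes, and the letters show where a match lies. The windows come from RefSeq on GRCm38.p6, the assembly of mm10, and run from 250 bases before to 50 bases after a start site. All 8 members had at least 1 window, with 2 each for Irf1, Irf8 and Irf9 and 1 for each of the others. Capitals mark the match, read 5′ to 3′ on the gene's strand, with up to 12 flanking bases. A GAS element, the gamma-interferon activation site of letters TTCNNNGAA (N, any base), which was searched on both strands and reads the same on each, was found for 3 members. It occurred in 8.3% of all 32851 windows of 300 bases. This share and those below are per window, whereas the members are counted per gene, so they are not directly comparable.
Irf1 at chr11:53769912-53769944: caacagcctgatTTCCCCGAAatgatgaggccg
Irf8 at chr8:120736175-120736207: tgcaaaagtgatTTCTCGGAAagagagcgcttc
Irf2 at chr8:46739509-46739541: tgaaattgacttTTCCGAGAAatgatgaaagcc
Irf8 held a second GAS match close by. The core of the interferon-stimulated response element (ISRE), a pair of GAAA separated by any 2 bases, was searched on both strands and found for Irf2 alone of the 8, against 3.44% of all windows. It overlaps a match to the ETS-IRF composite element, GGAA and GAAA separated by any 2 bases, which 2.72% of all windows hold.
Irf2 at chr8:46739495-46739525: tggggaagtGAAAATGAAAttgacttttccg
The matches are descriptions of letters and not shown sites of binding. The 5 members without a GAS match, Irf3, Irf4, Irf5, Irf7 and Irf9, also held no ISRE core in these windows.

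The libraries held 11607780 to 47261246 reads. The sort was visible in Ccr6, at 2750 to 7309 normalised counts in CCR6+ and 271 to 909 in CCR6- libraries, and Foxp3 was present in all of them at 12206 to 50875. CCR6+ replicate 2, the shallowest library, stood apart: the summed level of 12 epithelial markers was 79995 there, against 1826 to 11896 in the other 6 libraries. It also held the most macrophage and monocyte markers (153438, against 19523 to 109192) and dendritic cell markers (118829, against 7049 to 33473), and the fewest T cell and Treg markers (145252, against 294823 to 363133). Results are therefore given with and without it. Fewer cells of a type and less RNA per cell cannot be told apart in these bulk libraries.

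Irf1 on chromosome 11 (53770014 to 53778374, mm10, plus strand) encodes an activator induced by interferon-gamma. Its values were 17457, 11146 and 15918 normalised counts in CCR6+ replicates 1 to 3 and 16117, 15693, 15077 and 10013 in CCR6- replicates 1 to 4. The groups overlapped, and the 2 low libraries, CCR6+ replicate 2 and CCR6- replicate 4, came from different groups. The log2 difference, CCR6+ minus CCR6-, was 0.06 (SE 0.26, limma adjusted p = 0.918), and 0.25 without CCR6+ replicate 2. Irf2 on chromosome 8 (46739732 to 46847458, plus strand), which encodes the antagonist of IRF1, stood at 5296, 3785 and 4795 against 4809, 4516, 4830 and 5750. Its log2 difference was -0.11 (SE 0.19, limma adjusted p = 0.775). No direction is given for either gene, since the sign turned in several settings, among them quantile normalization for Irf2 and TMM scaling for Irf1.

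Irf3 on chromosome 7 (44997648 to 45002848, plus strand) encodes the constitutive factor that nucleic acid sensors activate by phosphorylation. It stood at 3001, 1979 and 2499 normalised counts in CCR6+ and at 3126, 3546, 3298 and 5497 in CCR6- libraries. Every CCR6+ library lay below every CCR6- library, although CCR6+ replicate 1 and CCR6- replicate 1 were close, and CCR6- replicate 4 was far above the rest. The log2 difference was -0.62 (SE 0.27, unadjusted p = 0.0601, limma adjusted p = 0.478), lower than that of all but 2.87% of the genes tested. Without CCR6+ replicate 2 the groups still did not overlap and the difference was -0.46, and without CCR6- replicate 4 it was -0.43. Of its exonic bases 2.56% overlap the antisense gene Bcl2l12, and the use of strand in counting is not given in the sources used here.

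Irf7 on chromosome 7 (141262706 to 141266481, minus strand) encodes the interferon-inducible amplifier of type I interferon production. It was the most even member in CCR6+ cells, at 3907, 4361 and 4139 normalised counts, against 3802, 3132, 4116 and 4793 in CCR6- cells. The CCR6+ values lay inside the range of the CCR6- values. The log2 difference was 0.08 (SE 0.19, limma adjusted p = 0.852). Irf9 on chromosome 14 (55603571 to 55610030, plus strand), which encodes the ISGF3 component named above, stood at 7298, 4358 and 6855 against 6744, 6290, 6758 and 8379. Only CCR6+ replicate 2 lay below the CCR6- range. Its log2 difference was -0.22 (SE 0.24, limma adjusted p = 0.667), and 0.01 without that library.

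Irf5 on chromosome 6 (29526625 to 29541871, plus strand) encodes the factor known from inflammatory macrophages, dendritic cells and B cells, where it acts downstream of Toll-like receptors. It stood at 2406, 3476 and 1781 normalised counts in CCR6+ and at 1479, 1206, 966 and 1213 in CCR6- libraries. All 3 CCR6+ libraries were above all 4 CCR6- libraries, with the highest value in CCR6+ replicate 2. The log2 difference was 1.03 (SE 0.28), a 2.05-fold difference, with an unadjusted p = 0.00925 and a limma adjusted p = 0.43. It was the only member with an unadjusted p under 0.05, which 10.6% of all genes tested had. Without CCR6+ replicate 2 the groups still did not overlap, and the difference was 0.78 (SE 0.24, limma adjusted p = 0.583). DESeq2 on the whole reads called Irf5 higher (adjusted p = 0.0104), as it did 3.72% of the genes, but not without CCR6+ replicate 2 (adjusted p = 0.0866), where it called 1.36% of all genes, and edgeR did not call Irf5 (adjusted p = 0.315). The antisense gene Tnpo3 overlaps 14.1% of its exonic bases.

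Markers of the cell types known for Irf5 also had higher summed levels in part of the CCR6+ libraries. All 13 macrophage and monocyte markers tested had positive log2 differences, with summed levels of 42020 to 153438 in CCR6+ and 19523 to 58874 in CCR6- libraries. The chemokine receptor gene Ccr2 alone made up 30868 of 42020 in CCR6+ replicate 3 and 17962 of 19523 in CCR6- replicate 4. Of 13 dendritic cell markers 12 were positive, with sums of 15372 to 118829 against 7049 to 17646, and of 12 B cell and plasma cell markers all 12, with sums of 3243 to 18400 against 2683 to 14256. Cell types not tied to Irf5 had this shift as well. All 12 epithelial, all 12 endothelial and stromal and all 10 granulocyte and mast cell markers tested were positive, against 56.9% of all genes. Of 13 T cell and Treg markers 3 were positive. Without CCR6+ replicate 2 positive were 13 of 13 macrophage, 12 of 13 dendritic and 11 of 12 B cell markers (50.1% of all genes). So were 9 of 11 epithelial, 8 of 12 endothelial and stromal and 7 of 8 granulocyte and mast cell markers. The macrophage markers Adgre1, Mrc1 and Siglec1 were listed at 0 in CCR6- replicate 4 and the B cell factor gene Pax5 in CCR6- replicates 3 and 4, where Irf5 stood at 966 and 1213. Clec9a and Siglech were at 0 in CCR6+ replicate 1, where Irf5 stood at 2406, and Marco was at 0 there and in CCR6- replicate 2. CCR6+ replicate 3 had lower sums than CCR6- replicate 2 for B cell (3243 against 14256), macrophage (42020 against 58874) and dendritic cell markers (15372 against 17646), and a higher level of Irf5 (1781 against 1206). This pair of libraries was picked after the values were seen. CCR6+ replicates 1 and 2 had macrophage (109192 and 153438) and dendritic cell sums (33473 and 118829) above every CCR6- library, and also higher levels of Irf5. For B cell markers this held for CCR6+ replicate 2 alone. Other markers of each list were above 0 in the libraries with markers at 0. The part of these cells in the Irf5 difference was not tested beyond these values.

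Irf4 on chromosome 13 (30749226 to 30766976, plus strand) encodes the factor that antigen receptor signals induce and that binds with BATF and JUN proteins. It stood at 4344, 1961 and 3110 normalised counts in CCR6+ and at 3004, 2428, 2136 and 1106 in CCR6- libraries. CCR6+ replicates 1 and 3 were the highest, CCR6+ replicate 2 was below 3 of the CCR6- libraries, and CCR6- replicate 4 was the lowest. The log2 difference was 0.55 (SE 0.43, limma adjusted p = 0.587). It was 0.85 (SE 0.44, limma adjusted p = 0.732) without CCR6+ replicate 2. The groups then no longer overlapped, as for 20.3% of all genes tested then, and 10.9% with CCR6+ above. The difference was 0.26 without CCR6- replicate 4. The 2 libraries lowest in Irf4 were also the 2 lowest in Foxp3, at 12206 and 19376 against 30878 to 50875 in the others, and in the Treg receptor gene Ctla4, at 20315 and 21782 against 39979 to 65124. The T cell kinase gene Lck did not follow this order in CCR6- replicate 4, where it stood at 97712 (44523 to 48334 in the other CCR6- libraries). The summed T cell and Treg markers stood there at 336828, the second highest of 7. Lck is part of that sum, so the sum is not a separate observation. The part of Treg content in the Irf4 values was not tested.

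Irf8 on chromosome 8 (120736358 to 120756694, plus strand) encodes the factor of dendritic cells, monocytes and B cells. It stood at 3618, 6922 and 2496 normalised counts in CCR6+ and at 2556, 2581, 2275 and 3230 in CCR6- libraries. CCR6+ replicate 2 was 2.7 times the median of the other 6 libraries, and CCR6+ replicate 3 lay inside the CCR6- range. The log2 difference was 0.59 (SE 0.36, limma adjusted p = 0.539) and became 0.19 (SE 0.24) without CCR6+ replicate 2, where the myeloid marker sums given above were highest. Irf8 had a level of at least 2275 in every library, including CCR6- replicates 3 and 4, where the dendritic and macrophage sums were lowest. The part of myeloid cells in the Irf8 values was not tested.

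**Figure D1:**
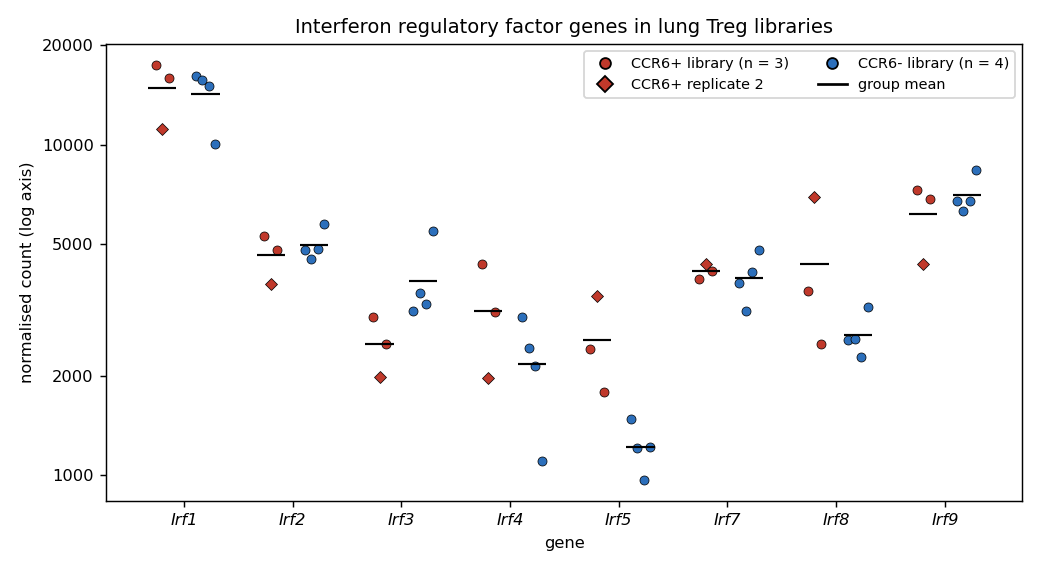
Normalised count (log axis) of each of the 8 genes in every library, with 3 CCR6+ libraries in red, CCR6+ replicate 2 as a diamond, 4 CCR6- libraries in blue and bars at the group means. The Irf5 points of the groups do not overlap (1781 to 3476 against 966 to 1479), nor do those of Irf3 (1979 to 3001 against 3126 to 5497).

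Across the family 5 members had positive and 3 negative log2 differences. The median was 0.07, against 0.10 over all genes tested. Of the 8 members 0 were called by limma, as were 0.0% of all genes. The edgeR test called 0 members and 0.0137% of all genes, and DESeq2 called 1 member and 4.66% of all genes. Limma with arrayWeights, whose weights had not converged, called 1 member, Irf3, and 17.0% of all genes. Groups did not overlap for 2 of 8 members (13.5% of all genes), and for 3 of 8 without CCR6+ replicate 2 (20.3%). Without that library 7 differences lay above and 1 below 0, the median being 0.11 against 0.00 over all genes, and those of Irf2 and Irf9 lay at 0.02 and 0.01. The differences of Irf3, Irf4, Irf5 and Irf8 kept their sign in all 21 other settings tried, though not their size. Not all of these settings could turn a sign. The filters and robust limma-trend left each difference unchanged, and the replicate block repeated the fit without CCR6- replicate 4. The differences ranged from -0.76 to -0.42 for Irf3, 0.26 to 0.85 for Irf4, 0.59 to 1.27 for Irf5 and 0.036 to 0.92 for Irf8. Those smallest in size for Irf3, Irf5 and Irf8 came from arrayWeights.

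**Figure D2:**
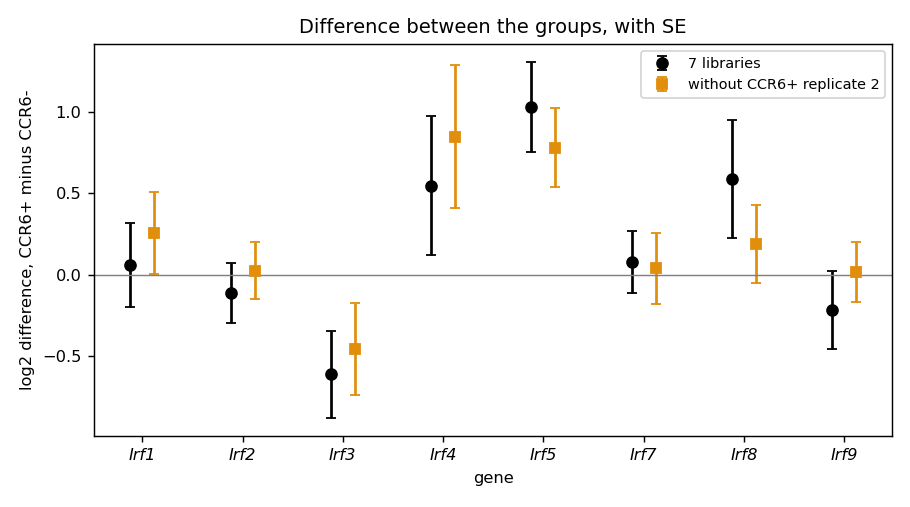
Log2 difference (CCR6+ minus CCR6-) with its limma SE for each gene, from 7 libraries (black circles) and without CCR6+ replicate 2 (orange squares). Irf5 lies highest at 1.03 and Irf3 lowest at -0.62, and leaving out the library moves Irf8 from 0.59 to 0.19 and Irf4 from 0.55 to 0.85.

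To compare members with each other, normalised counts were divided by the mRNA length of the principal transcript in GENCODE M21. Irf1 had the highest level per kb in all 7 libraries, at 6944 ± 1540 in CCR6+ (n = 3) and 6657 ± 1329 in CCR6- cells (n = 4). Its share of the family's summed level was 26.8% to 43.1%. Irf9 came next in 6 of 7 libraries, at 2509 ± 645 and 2864 ± 373 per kb. Irf7 (2159 ± 118 and 2067 ± 360) and Irf2 (1852 ± 308 and 1993 ± 214) followed and did not differ beyond their spread. In CCR6- cells Irf3, at 1904 ± 542 per kb, lay beside these, whereas in CCR6+ cells it stood at 1227 ± 252. Irf8 (1526 ± 808 and 934 ± 142), Irf5 (1140 ± 382 and 543 ± 93.6) and Irf4 (659 ± 250 and 455 ± 167) had the lowest levels per kb in CCR6- cells, and Irf4 was last in 6 of the 7 libraries. With the union of annotated exons as the length, an alternative chosen after the data were seen, Irf1 remained first in every library while the order of the lower members changed, and Irf8 was last in 5 libraries.

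Within each library the level of Irf5 relative to that of Irf3, per kb, was 0.727, 1.59 and 0.646 in CCR6+ replicates 1 to 3. It was 0.429, 0.308, 0.265 and 0.20 in CCR6- replicates 1 to 4. This pair was picked after the values were seen. Since the groups of both genes did not overlap, on opposite sides, those of the ratio could not overlap either, and the ratio adds only its size. The level of Irf8 relative to Irf4 set apart CCR6+ replicate 2 (5.91) and CCR6- replicate 4 (4.89), while the other 5 libraries of both groups lay between 1.34 and 1.78.

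**Figure D3:**
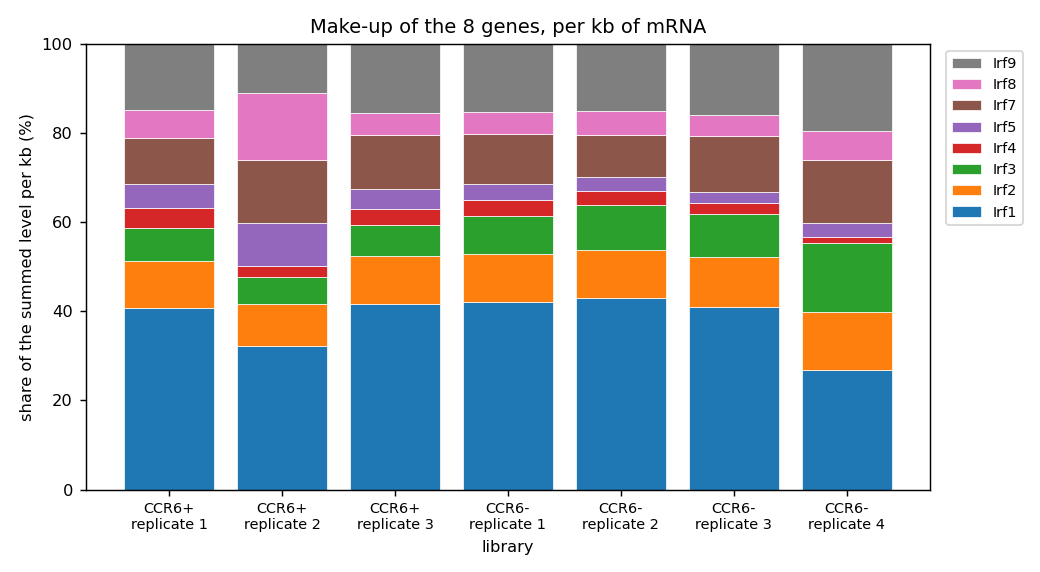
Share (%) of each gene in the summed level per kb of the 8 genes, 1 bar per library. Irf1 makes up 26.8% to 43.1%, Irf8 and Irf5 reach 15.1% and 9.6% in CCR6+ replicate 2, and Irf3 reaches 15.5% in CCR6- replicate 4.

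The genes whose pattern over the 7 libraries was most like that of each member were sought by the root mean square (RMS) difference of mean-centred log2 values, among 10863 other genes with a mean of at least 100. Irf9 was nearest to Ifit1bl1, a gene of the interferon-induced Ifit family (RMS 0.034), then to Ldb1 and Ddx24. Irf4 was nearest to Cd274, which encodes PD-L1 (RMS 0.127), then to Ppp1r16b and the autophagy kinase gene Ulk1. Irf3 was nearest to the cohesin gene Smc3 (RMS 0.0543), then to Dedd2 and Adprhl2. Irf7 was nearest to Tfeb, a lysosomal transcription factor gene (RMS 0.0427), then to Rufy2 and Dlg1. Irf1 was nearest to Atxn7l3, Dctn4 and Pstpip1 (RMS 0.0645 to 0.0712), and Irf2 to Nek7, Pold3 and 3110052M02Rik (RMS 0.0316 to 0.0411). The nearest genes of Irf5 (Rmdn2, Creb3l2 and Hgsnat, RMS 0.158 to 0.171) and of Irf8 (Rab3d, Kdelc1 and Ralb, RMS 0.107 to 0.143) were not as close as those of Irf1, Irf2, Irf3, Irf7 and Irf9. Without CCR6+ replicate 2, Kdelc1 and Ralb ranked 132 and 239 for Irf8 by this measure. Between members the closest pair was Irf2 and Irf9 (RMS 0.105, and 0.0266 without CCR6+ replicate 2), and the pair farthest apart was Irf3 and Irf5 (0.948). Without that library Irf3 and Irf5 stood at 0.671, and Irf3 and Irf4 were farthest apart (0.932). These are descriptions over 7 libraries that share group and depth differences.

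Genes induced by type I interferon, many of them through ISGF3 and IRF9, lay mostly on the CCR6+ side. Of 29 members tested 26 had positive log2 differences and 3 negative, against 56.9% positive over all genes, and 0 passed the limma test in either direction, with 5 at an unadjusted p under 0.05 (10.6% over all genes). The edgeR test called 0 of the 29. DESeq2 called 0 of those with an adjusted p and gave none for Oasl2. The median was 0.24, against 0.10 over all genes. Without CCR6+ replicate 2 it was 0.24 against 0.00, with 23 positive and 6 negative and 50.1% positive over all genes. The groups did not overlap for 6 members with CCR6+ above and for 0 with CCR6+ below, against 7.96% and 5.53% of all genes. The summed level of the list was 46721, 42628 and 42269 normalised counts in CCR6+ replicates 1 to 3 and 38753, 37022, 38330 and 37994 in CCR6- replicates 1 to 4. All CCR6+ sums lay above all CCR6- sums, and with equal library totals the sums were 44139 to 47096 against 34650 to 38672. With quantile normalization 20 members were positive and the median was 0.21 (-0.08 over all genes), and with TMM scaling these were 23 and 0.17 (0.02). The macrophage, dendritic cell and B cell markers described beside Irf5 were positive as well, and their part in the list was not tested.

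Among its members of smallest p, Ifit3, which encodes an interferon-induced antiviral protein, stood at 335, 489 and 315 normalised counts in CCR6+ and at 195, 225, 185 and 305 in CCR6- libraries. Its log2 difference was 0.74 (SE 0.26, limma adjusted p = 0.449), and 0.21 with quantile normalization. Ifit3b, a near copy whose reads may not be separable from those of Ifit3, stood at 197 ± 33.5 against 121 ± 21.5, a difference of 0.70 whose sign turned with quantile normalization (-0.43). Oasl2, of the oligoadenylate synthetase family, stood at 127, 1283 and 104 against 64.3, 41.4, 42.3 and 8.8. Its difference was 2.97, and 1.81 without CCR6+ replicate 2. Groups did not overlap for any of these 3 genes, which were picked by smallest p, so this adds little. The groups of 6 of the 29 did not overlap.

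Genes of the interferon-gamma response, many of them linked to IRF1, lay on both sides. Of 27 tested, 11 had positive and 16 negative differences (median -0.13), and 0 passed with limma or edgeR, with 1 at an unadjusted p under 0.05 by limma. Over all genes 56.9% were positive and 10.6% had an unadjusted p under 0.05 by limma. Without CCR6+ replicate 2 the median was 0.15 with 18 positive and 9 negative (50.1% positive over all genes). Ciita, the MHC class II transactivator gene of antigen-presenting cells and an IRF1 target, stood at 363, 1074 and 223 normalised counts against 155, 70.4, 54.3 and 23.0, a difference of 2.84 (SE 0.78, limma adjusted p = 0.432), or 2.2 without CCR6+ replicate 2. DESeq2 called Ciita higher (adjusted p = 0.0121), as it did 3.72% of all genes, but not without that library (adjusted p = 0.228). There DESeq2 called Il12rb1 of this list higher instead, and 0.769% of all genes. Like the dendritic and B cell marker sums Ciita was highest in CCR6+ replicate 2, and their part in its difference was not tested. Cxcl10, a chemokine gene, stood at 741, 366 and 647 against 271, 389, 314 and 88.7. Irgm1, a GTPase gene, stood at 6476 ± 1056 against 4896 ± 703. Both overlapped between the groups, and the Gbp6 row was at 0 in all 7 libraries.

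The receptors and signal transducers of interferon had 4 positive and 11 negative differences among 15 tested (median -0.14), and 9 and 6 without CCR6+ replicate 2 (median 0.02). Over all genes 56.9% were positive, and 50.1% without that library. With limma 0 passed, with 0 at an unadjusted p under 0.05 (10.6% of all genes). The edgeR and DESeq2 tests called 0 (0.0137% and 4.66% of all genes). Ifng, the interferon-gamma gene kept in this list as the ligand, stood at 37.8, 155 and 4.06 normalised counts in CCR6+ and at 211, 169, 162 and 163 in CCR6- libraries. All CCR6+ values were lower, but that of CCR6+ replicate 2 was near the CCR6- libraries. The difference was -2.49 (SE 1.08, unadjusted p = 0.0586, limma adjusted p = 0.478), and -3.65 without that library (limma adjusted p = 0.409). DESeq2 without that library called Ifng lower, as it did 0.595% of all genes. Without CCR6+ replicate 3, its lowest library, the difference was -1.18. Ptpn6, the phosphatase SHP-1, stood at 5635 ± 688 against 8057 ± 1952 with no overlap. The kinase gene Jak1 stood at 40615 ± 7498 against 56791 ± 14146 with overlap. In this list groups did not overlap for 1 gene with CCR6+ above and 2 below (7.96% and 5.53% of all genes).

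Among 19 sensors, adaptors and kinases upstream of IRF3, IRF5 and IRF7, 10 were positive and 9 negative (median 0.13), and without CCR6+ replicate 2 these were 12 and 7 (median 0.26). The median was -0.09 with the filter on a mean of at least 100. Over all genes 56.9% were positive, and 50.1% without CCR6+ replicate 2. With limma 0 passed, with 4 higher and 1 lower at an unadjusted p under 0.05 (8.22% and 2.35% of all genes), and edgeR called 0. DESeq2 called Tbkbp1 higher and Ikbke lower, as it did 3.72% and 0.933% of all genes. It called neither without CCR6+ replicate 2 (adjusted p = 0.618 and 0.414). Ikbke, the kinase IKK-epsilon that phosphorylates IRF3 and IRF7, stood at 6036, 4167 and 6434 normalised counts in CCR6+ and at 9236, 6643, 9612 and 12698 in CCR6- libraries. The groups did not overlap, as for Irf3, and the difference was -0.77 (SE 0.28, limma adjusted p = 0.458). Ticam1, the adaptor TRIF of Toll-like receptors 3 and 4, stood at 651, 405 and 532 against 358, 296, 313 and 206. Its groups did not overlap either (0.85, SE 0.27, limma adjusted p = 0.44), and the difference was 0.21 with quantile normalization. Tbkbp1, a TBK1-binding protein gene, stood at 30.1, 252 and 39.6 against 9.77 ± 2.18 (n = 4). Its groups did not overlap, and CCR6+ replicate 2 was far above the rest. These 3 genes were picked by smallest p, so their lack of overlap adds little. In the list it held for 3 genes with CCR6+ above and 2 below (7.96% and 5.53% of all genes).

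Partners and effector Treg targets of IRF4 had 13 positive and 7 negative differences among 20 tested (median 0.21), and 17 and 3 without CCR6+ replicate 2 (median 0.38). Over all genes 56.9% were positive, and 50.1% without that library. With limma 0 passed, with 2 at an unadjusted p under 0.05 (10.6% of all genes). The edgeR and DESeq2 tests each called 1 (0.0137% and 4.66% of all genes). Without CCR6+ replicate 1 the median was -0.0019. Ebi3, a subunit of IL-35, stood at 479, 303 and 287 against 212, 277, 162 and 218, a difference of 0.70 whose sign turned with quantile normalization (-0.17). Maf, a factor for IL-10 expression, stood at 5870, 3160 and 5318 against 2691, 3310, 2863 and 3601, with CCR6+ replicate 2 inside the CCR6- range. Without that library its groups did not overlap, as for 10.9% of all genes with CCR6+ above. DESeq2 then called Maf higher (0.86, adjusted p = 0.0012), and also Icos, a costimulatory receptor gene, against 0.769% of all genes.

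The ETS partners of IRF4 and IRF8 lay on both sides. Spi1, which encodes the myeloid and B cell factor PU.1, stood at 742, 2416 and 280 normalised counts against 331, 352, 71.7 and 92.7. Spib stood at 696, 1121 and 111 against 172, 194, 41.4 and 21.0. Both overlapped between the groups and were highest in CCR6+ replicate 2, as was Irf8. Ets1, the T cell member, stood at 78775 ± 16178 against 118828 ± 27638. Of the 11 genes of this list, which also holds the IRF2-binding proteins, 7 were positive and 4 negative (median 0.03), and without CCR6+ replicate 2 these were 8 and 3 (median 0.36). Over all genes 56.9% were positive, and 50.1% without that library. With limma 0 passed, with 0 at an unadjusted p under 0.05 (10.6% of all genes), and edgeR called 0. DESeq2 called Spi1 higher (2.42, adjusted p = 0.0499), as it did 3.72% of all genes, but not without CCR6+ replicate 2 (1.29, adjusted p = 0.648).

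**Figure D4:**
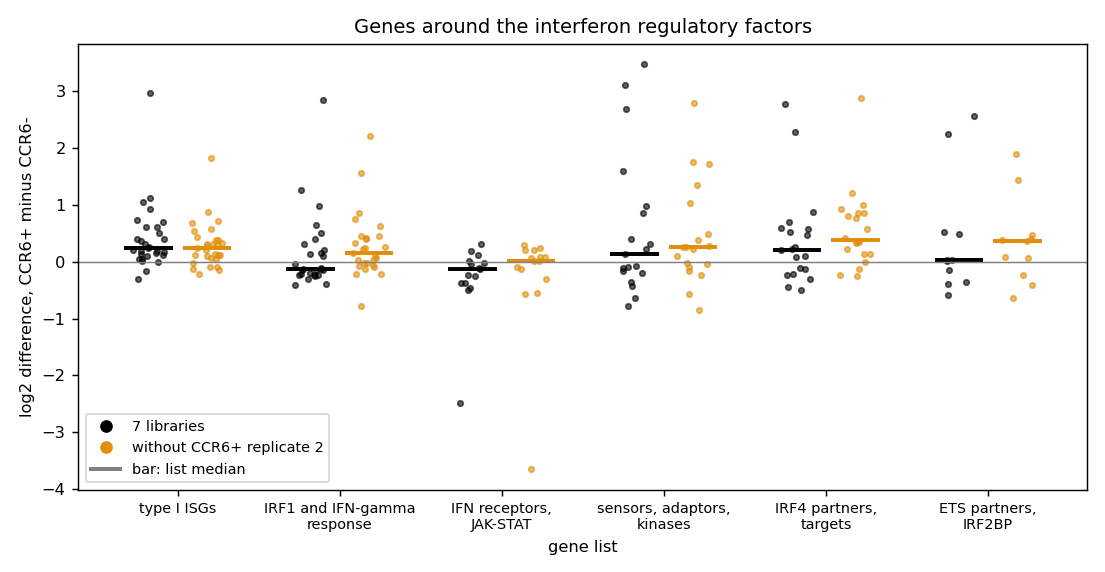
Log2 difference (CCR6+ minus CCR6-) of each tested gene in 6 lists of genes around the IRFs, from 7 libraries (black) and without CCR6+ replicate 2 (orange), with bars at the list medians. The median of the type I interferon-stimulated genes (ISGs) is 0.24 in both, while that of the IRF1 and interferon-gamma response goes from -0.13 to 0.15, and the lowest point is Ifng at -2.49 and -3.65.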

How the data were processed

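RNA was measured in 7 libraries, made with SMART-Seq v4 cDNA and KAPA Hyper Prep chemistry, per the labels' protocols. STAR 2.5.1b, HTSeq 0.6.1p1, DESeq2 1.6.3 and mm10 are listed in the submitters' processing notes, with no role or order. For each symbol the deposited files give a signal, taken here as reads scaled by 1 factor per library and called normalised counts. That rests on the values, which are whole multiples of 1 step per library, within 0.001 reads for 100% of values. Whole reads were recovered with that step. The annotation, the use of strand and any filter: not given in the sources used here.

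The filter kept genes reaching 10 in 3 or more libraries. Limma 3.58.1 (R 4.3.3) was fitted to log2(value + 1) of all 7 libraries, two-sided, without covariates, with Benjamini-Hochberg adjustment over all genes kept and a threshold of 0.05. Differences are on this scale, which understates those of low genes. Alternatives were pseudocounts 0.5 and 8, no filter or a mean of at least 100, equal totals, TMM and quantile scaling, robust limma-trend, arrayWeights, a replicate block, each library left out, and count models on the recovered reads (edgeR 4.0.16, DESeq2 1.42.0). Both count tools without CCR6+ replicate 2 were added after the data were seen. Tests were tested on simulated data.

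Members and lists were chosen with earlier results of these data known. Named are all 8 members, the 3 genes of smallest p with a mean of at least 50 per list around the IRFs (any past the threshold would have come first), markers, and the 3 genes most like each member. A gene that the rule names among the IRF4 partners and targets is not reported here. The pairing of replicate numbers was checked by the correlation of deviations from group means. Positions are 1-based from GENCODE M21, and promoter windows are from RefSeq. No pair of libraries within a group agreed within the noise of read sampling. Protein sequences were not used here.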

Additional observations from a re-analysis of the deposited data

Results flagged for a closer look

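In 7 of 56 sets of CCR6- values, the highest or lowest of the 4 libraries was separated from its nearest neighbour by most of the range, which chance alone does in about 1 of 20 sets. Groups of 3 were not examined this way. Irf1 stood at 10013 normalised counts in CCR6- replicate 4, against 15077 to 16117 in the others. In the same library the T cell kinase gene Lck stood at 97712 against 44523 to 48334, Ctla4 at 21782 against 39979 to 41858, and the summed level of the IRF4 partners and effector Treg targets at 297135 against 191171 to 202470. The AP-1 genes Junb (153559 against 64383 to 80257) and Jund (31458 against 9234 to 11864) are large parts of that sum. Not all of the list lay that way, and Icos stood at 18663 against 25418 to 32020. In CCR6- replicate 2, Irgm1 stood at 5944 against 4441 to 4628, and the summed B cell and plasma cell markers at 14256 against 2683 to 4039. In CCR6- replicate 1, Ifng stood at 211 against 162 to 169.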

How the results depend on the processing

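Limma called 0 of 14582 genes, with 1540 at an unadjusted p under 0.05. The count was 1 with pseudocount 0.5 and with TMM scaling, 2 with pseudocount 8, with the filter on a mean of at least 100, with edgeR and with edgeR without CCR6+ replicate 2, 4 with quantile normalization, 10 with robust limma-trend, 679 with DESeq2, 181 with DESeq2 without CCR6+ replicate 2 and 2486 with arrayWeights, whose weights had not converged. It stayed 0 in each fit that left out 1 library. Of the members, DESeq2 called 1 (Irf5, 1.06) and arrayWeights 1 (Irf3, -0.42, adjusted p = 0.049).

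The sign of Irf1 turned with TMM scaling (-0.013), edgeR (-0.0047) and the replicate block (-0.10), and its range with 1 library left out was -0.10 to 0.25. That of Irf2 turned with quantile normalization (0.0075), edgeR (0.016) and DESeq2 (0.035) without CCR6+ replicate 2, with a range of -0.22 to 0.024 over left-out libraries. Irf7 turned with edgeR (-0.020), with a range of -0.030 to 0.17. Irf9 turned with arrayWeights (0.011) and with edgeR (0.0033) and DESeq2 (0.022) without CCR6+ replicate 2, with a range of -0.36 to 0.015. The cause was not tested. Ifit3b (-0.43) and Ebi3 (-0.17) turned with quantile normalization. Of 168 values of members under other settings, 150 kept direction and side of the threshold. They include settings that could not turn a sign, such as the filters and robust limma-trend.

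Same-numbered deviations correlated at -0.13, -0.11 and 0.34 across genes, and those of other pairs at -0.76 to 0.69. With so wide a range this check could not settle whether replicate numbers pair the libraries. With the replicate block 0 genes were called, and the members' values equal those without CCR6- replicate 4, which has no partner. The lowest member counts, 862 to 870 reads for Irf4 and Irf3 in CCR6+ replicate 2, leave the spread between libraries as the main limit.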
